A study of Mus musculus with 6 samples.

Results

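The genes described here encode UDP-glucuronosyltransferases and cytosolic sulfotransferases, which attach a glucuronic acid or a sulfate group to drugs, hormones, bilirubin and bile acids. They are all rows of the deposited mouse liver gene table whose symbol begins with Ugt1, Ugt2, Ugt3 or Ugt8 followed by a letter, or with Sult followed by a digit. This rule found 33 of the 15953 genes in the table, 21 Ugt genes and 12 Sult genes. RNA sequencing had been done on livers of C57BL/6 mice, 3 of them labelled Cgref1 KO and 3 labelled wild type, and the comparison asks how hepatic gene expression differs between the genotypes. Both groups share the strain and the tissue. The labels call the samples of a group biological replicates and give no age, sex, diet or treatment, no allele for Cgref1 and no account of where in the body it was deleted.

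UDP-glucuronosyltransferases sit in the membrane of the endoplasmic reticulum and transfer glucuronic acid from UDP-glucuronic acid to lipid-soluble molecules, which makes them soluble enough for bile or urine. Sulfotransferases of the Sult families work in the cytosol and take their sulfate from the activated donor PAPS. The liver is a main site of both reactions, where Ugt1a1 clears bilirubin, Ugt2b enzymes conjugate steroids and drugs, and Sult2a enzymes sulfate bile acids and steroids.

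Library totals ran from 17649817 to 18366443 estimated counts in Cgref1 KO livers and from 17627734 to 18185837 in wild type livers. Of these totals 0.747% to 0.83% belonged to the 33 genes. The labels name hepatocytes as the cell type and the series design speaks of liver tissue; all 8 markers of hepatocytes and all 8 markers of Kupffer cells, the liver's macrophages, were detected in each library. Cgref1 itself had 7, 12 and 10 counts in Cgref1 KO livers, against 7, 7 and 19 in wild type livers. A loss of its transcript was therefore not seen at this depth, and each genotype rests on the label. Transcripts of intestinal epithelium stood mainly in wild type replicates 1 and 3: without Fabp2, which is abundant in all the livers, the 25 other markers summed to 81, 82 and 121 counts in Cgref1 KO livers and to 297, 93 and 593 in wild type livers. Of the full list of 26, the number at 0 was 21, 21 and 20 in Cgref1 KO livers and 3, 13 and 2 in wild type livers.

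The abundant conjugation genes stood at close levels in Cgref1 KO and wild type livers, and most fold changes of the scarcer ones lay farther from zero. Ugt2b1, one of the 4 most abundant members, averaged 1.43-fold higher in Cgref1 KO livers without passing the adjusted test, while 12 of the 13 members at a mean of 50 TPM or more had a log2 fold change within 0.25 of zero. Of the 10 tested members under 50 TPM, 2 lay within 0.25 of zero. Many of these estimates were less precise. The standard error (SE) was 0.76 for Ugt2b38, 0.61 for Ugt2b37 and 0.45 for Ugt1a10, though 0.09 for Ugt1a6a, against 0.12 for Ugt2b1. Less precise estimates scatter more around zero, so this contrast does not by itself show larger differences in the scarcer genes. TPM, a transcript abundance scaled by gene length and by the library, lets levels of different genes be compared. CPM, the count as a rate per library total scaled by the TMM method, is the scale of all fold changes here, which are Cgref1 KO over wild type. Of the 33 genes 23 passed the filter on low counts and were tested. With edgeR's quasi-likelihood test, adjusted by Benjamini and Hochberg over all 12033 genes tested, 0 members passed the threshold of 0.05, with adjusted p between 0.739 and 0.994. DESeq2 and limma-voom called 0 members as well. Across all genes edgeR called 1, which is 0.00831%, and DESeq2 called 28, which is 0.233%.

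At an unadjusted p under 0.05 there were 5 of the 23 members, 4 higher and 1 lower in Cgref1 KO livers. Over all genes 5.15% had such a p, 2.95% higher and 2.2% lower. The 3 Cgref1 KO values lay all above the 3 wild type values in 4 members and all below them in 1, while over all genes 6.19% lay above and 4.63% below, 10.8% together. The tested members had 14 positive and 9 negative log2 fold changes, a median of 0.04 and a range from -0.83 to 1.71, beside a median of -0.00 over all genes tested. Library totals, TPM and FPKM moved both medians down, the members to between -0.09 and -0.04 and all genes to between -0.13 and -0.06. RNA from whole livers does not tell fewer cells of a type from less RNA per cell. The labels do not say whether replicates came from separate litters or days, and a p here measures only the spread between these samples.

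**Figure D1:**
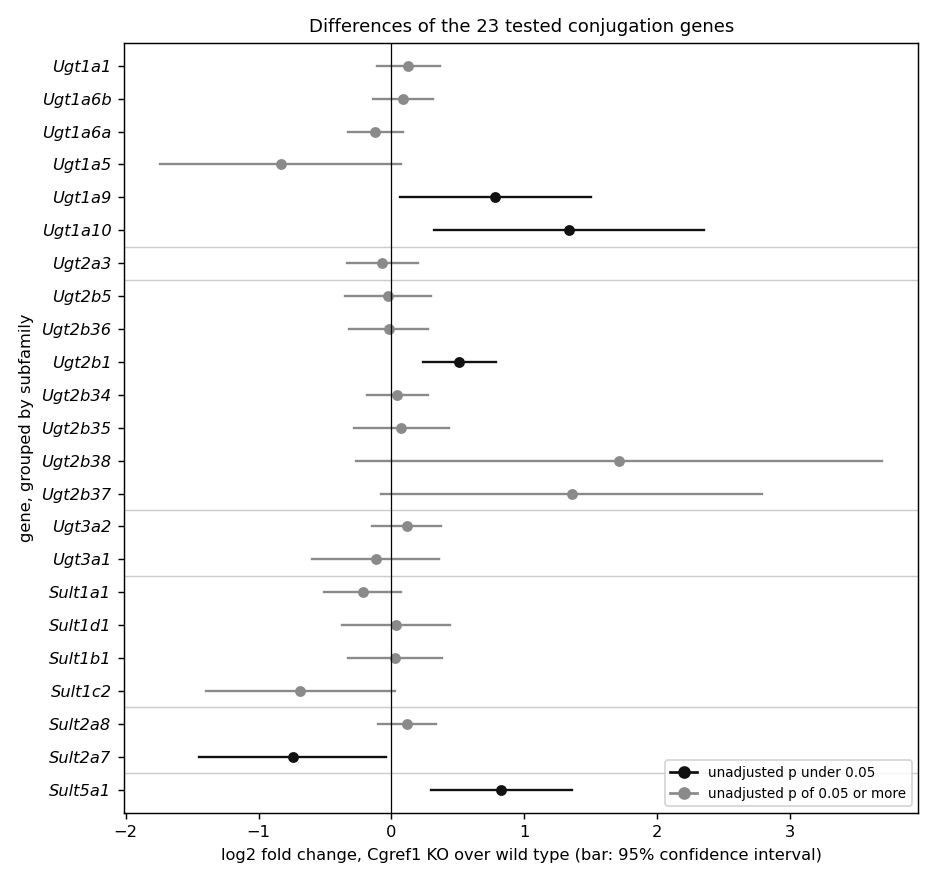
Log2 fold change of each tested conjugation gene, Cgref1 KO over wild type, with its 95% confidence interval from the edgeR fit, grouped by subfamily. Most genes lie close to zero; the 5 genes drawn in black had an unadjusted p under 0.05, and the widest interval is that of Ugt2b38, from -0.27 to 3.69.

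By level the members spread over several orders of magnitude. Of the 33 genes 4 averaged at least 500 TPM over the 6 livers, namely Ugt2b5, Sult2a8, Ugt2b36 and Ugt2b1, and 11 averaged under 1 TPM. The Ugt genes together summed to 3758 ± 372 TPM in Cgref1 KO livers and 3885 ± 247 TPM in wild type livers (SD, n = 3 each). The Sult genes summed to 1411 ± 87 TPM in Cgref1 KO livers and 1505 ± 101 TPM in wild type livers (SD, n = 3 each). The difference of the Ugt sums was smaller than either SD, and that of the Sult sums was smaller than the SD of the wild type livers.

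**Figure D2:**
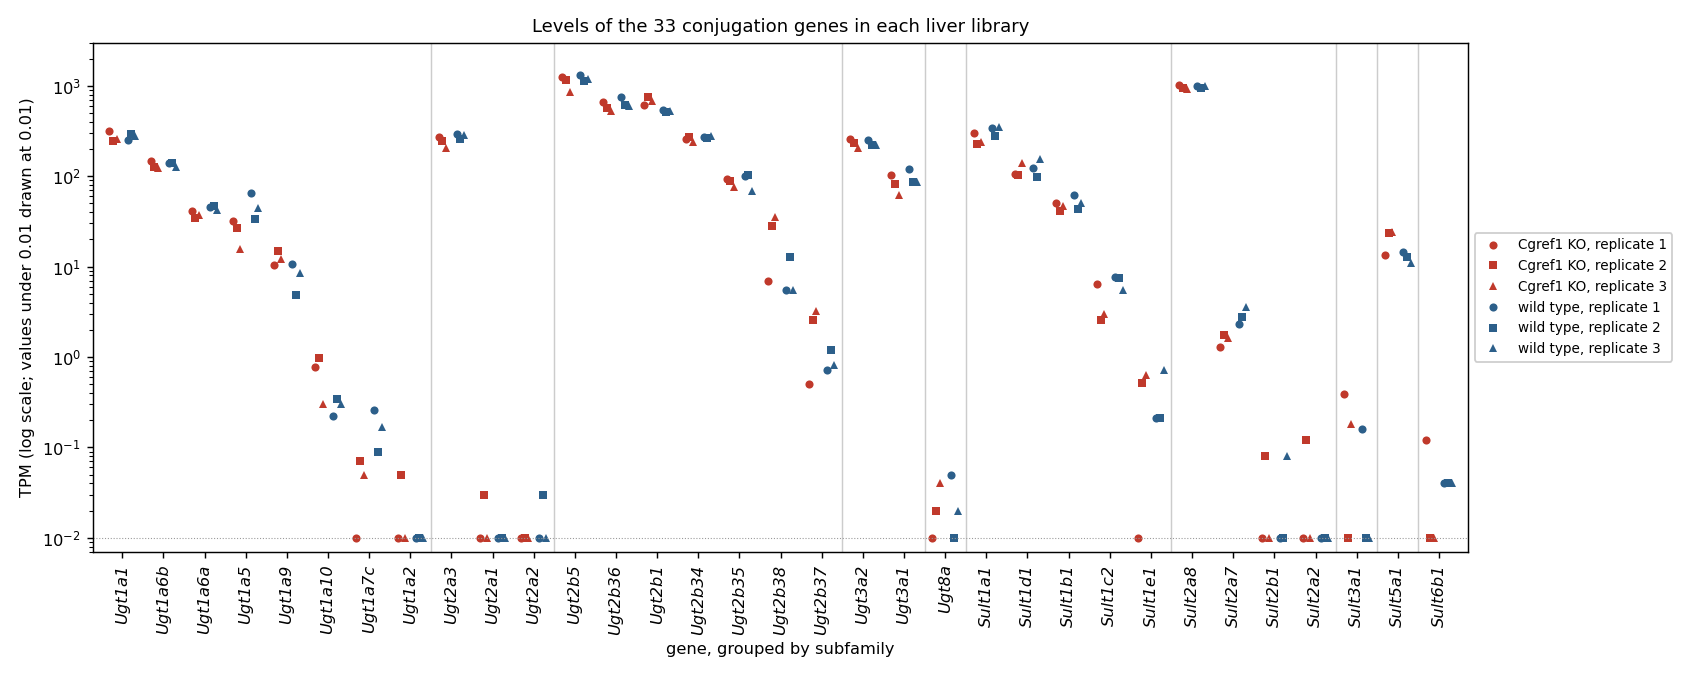
TPM of each of the 33 genes in each library on a log axis, Cgref1 KO to the left of wild type within a gene, with values under 0.01 drawn at 0.01. Replicates lie close together for the abundant genes, while Ugt2b38, Ugt2b37, Ugt1a9 and Ugt1a10 spread widely between livers.

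The Ugt2b subfamily carried most of the transcripts of the 21 Ugt genes. Its share of the summed Ugt TPM was 72.5% ± 1.47 in Cgref1 KO livers and 71.2% ± 0.473 in wild type livers (SD, n = 3 each). Ugt2b5 was the most abundant Ugt gene in each of the 6 libraries, with 1246, 1151 and 865 TPM in Cgref1 KO livers and 1317, 1140 and 1188 TPM in wild type livers. Ugt2b36 was the next most abundant in all 3 wild type livers and in Cgref1 KO replicate 1, whereas Ugt2b1 took that place in Cgref1 KO replicates 2 and 3. As a share of the summed Ugt TPM, Ugt2b1 made up 15.14%, 19.57% and 20.40% in Cgref1 KO livers, against 13.05%, 13.91% and 13.99% in wild type livers. The 2 groups of shares did not overlap.

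**Figure D3:**
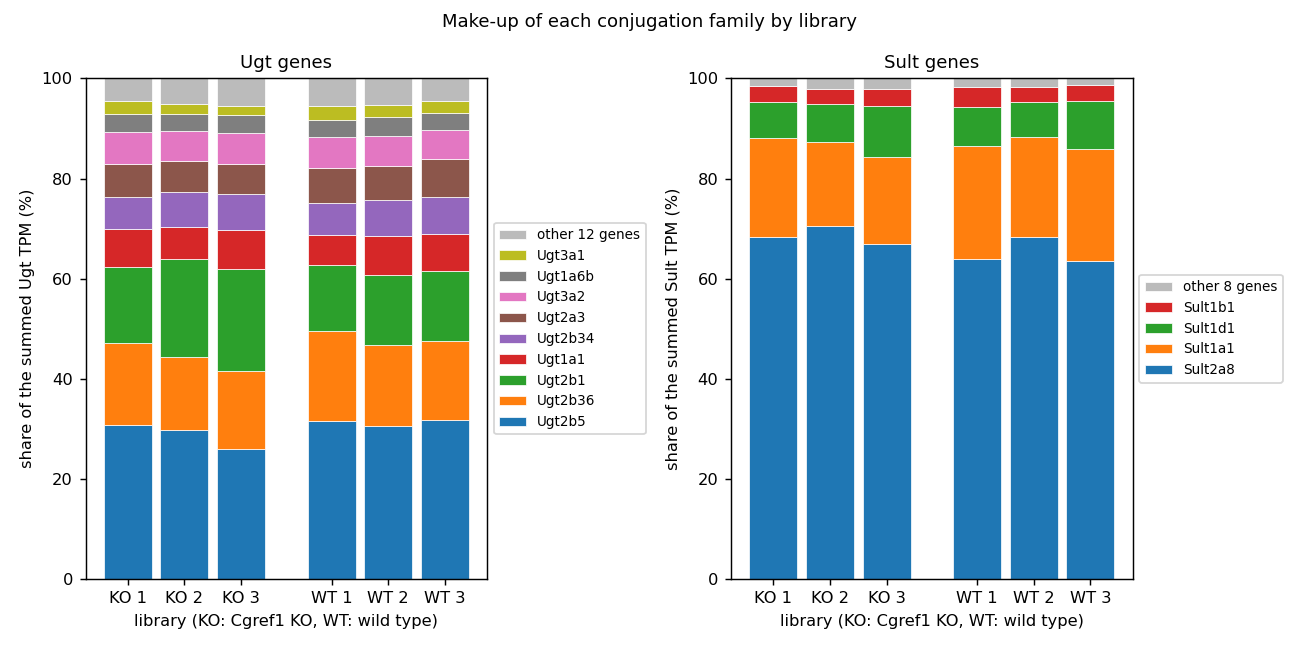
Share of the summed Ugt TPM (left) and of the summed Sult TPM (right) taken by each gene, 1 bar per library, with the remaining genes in grey. Ugt2b5, Ugt2b36 and Ugt2b1 together fill 60.7% to 63.9% of each Ugt bar, and Sult2a8 fills 63.5% to 70.4% of each Sult bar.

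Ugt2b1, whose product conjugates steroids and drugs and which is known as a male-predominant gene of mouse liver, is a minus-strand gene of chromosome 5 between bases 86916639 and 86926503 (GRCm38). It had 1092, 1464 and 1263 CPM in Cgref1 KO livers, against 937, 868 and 875 CPM in wild type livers. Each Cgref1 KO liver stood above each wild type liver, and Cgref1 KO replicate 1 was the nearest to the wild type range. The means were 1273 ± 186 CPM in Cgref1 KO livers and 894 ± 37.8 CPM in wild type livers (SD, n = 3 each). The log2 fold change was 0.51 (SE 0.12, 95% confidence interval 0.23 to 0.79), with an unadjusted p of 0.0022 and an adjusted p of 0.739 in edgeR's quasi-likelihood test. Over 18 alternative settings it stayed positive, from 0.37 to 0.61, and the adjusted p ran from 0.0652 to 1.00. In the authors' deposited table its q-value was 0.0636.

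Ugt2b34, the neighbour of Ugt2b1 and the member most like it in coding sequence at 74.9% identity, is described for comparison. It stood at 549, 633 and 533 CPM in Cgref1 KO livers and at 568, 535 and 560 CPM in wild type livers, so that the groups overlapped. The ratio of Ugt2b1 to Ugt2b34 in CPM, which needs no scaling between libraries, was 1.99, 2.31 and 2.37 in Cgref1 KO livers, against 1.65, 1.62 and 1.56 in wild type livers. This ratio shows an unequal difference of the pair and not that either gene stayed the same. Ugt2b36 with 784 ± 78.3 CPM in Cgref1 KO livers and 796 ± 121 CPM in wild type livers (SD, n = 3 each), and Ugt2b35 with 215 ± 21.2 CPM in Cgref1 KO livers and 204 ± 43.7 CPM in wild type livers (SD, n = 3 each), overlapped too.

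Ugt2b5, Ugt2b37 and Ugt2b38 are near-identical copies, and their levels differ from each other far more than their sequences do. Their coding sequences share 97.0% of bases between Ugt2b38 and Ugt2b5, 94.7% between Ugt2b37 and Ugt2b5 and 94.1% between Ugt2b37 and Ugt2b38 in GENCODE M21. The 120 bases before the annotated transcription start (RefSeq, GRCm38.p6) are printed to show how alike the copies are there as well, with the longest run common to the 3 copies in capitals; Ugt2b1, which lacks that run, stands first for comparison.
Ugt2b1: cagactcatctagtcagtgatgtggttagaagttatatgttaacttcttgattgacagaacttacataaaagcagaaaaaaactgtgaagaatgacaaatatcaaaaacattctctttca
Ugt2b5: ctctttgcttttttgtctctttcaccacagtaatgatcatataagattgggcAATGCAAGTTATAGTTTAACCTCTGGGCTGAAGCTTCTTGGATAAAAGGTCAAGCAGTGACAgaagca
Ugt2b37: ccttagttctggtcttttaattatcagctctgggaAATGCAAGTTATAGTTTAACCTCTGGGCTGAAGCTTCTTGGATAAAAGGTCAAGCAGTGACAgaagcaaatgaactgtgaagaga
Ugt2b38: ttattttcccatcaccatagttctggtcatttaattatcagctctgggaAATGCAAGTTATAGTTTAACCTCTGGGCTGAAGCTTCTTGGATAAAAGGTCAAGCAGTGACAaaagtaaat
All 4 are read from the minus strand, and the stretches lie at chr5:86926504-86926623 for Ugt2b1, chr5:87140341-87140460 for Ugt2b5, chr5:87254789-87254908 for Ugt2b37 and chr5:87424204-87424323 for Ugt2b38. The shared run is 62 bases long, begins 68, 85 and 71 bases before the start of Ugt2b5, Ugt2b37 and Ugt2b38, and occurs in 3 of the 32841 promoter windows of the table, which are these 3. Over the 250 bases before the start, identity was 89.6% between Ugt2b37 and Ugt2b38 and 84.8% between Ugt2b38 and Ugt2b5, against 53.6% between Ugt2b38 and Ugt2b1.

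Ugt2b38, also known as male-predominant in mouse liver, lies from 87409939 to 87424203 on chromosome 5 and was the member with the largest log2 fold change. It had 6.85, 28.5 and 35.4 TPM in Cgref1 KO livers, against 5.51, 12.9 and 5.58 TPM in wild type livers. Cgref1 KO replicates 2 and 3 stood above every wild type liver, but Cgref1 KO replicate 1 lay within the wild type range. In CPM the means were 32.2 ± 20.6 in Cgref1 KO livers and 9.80 ± 5.14 in wild type livers (SD, n = 3 each), a log2 fold change of 1.71 (SE 0.76) with an unadjusted p of 0.0762 and an adjusted p of 0.973 in edgeR. The value was 2.16 when Cgref1 KO replicate 1 was left out and 1.02 when wild type replicates 1 and 3 were both left out, which leaves 1 wild type library that is assumed to vary like the rest.

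Ugt2b37, from 87240492 to 87254788, was likewise highest in Cgref1 KO replicates 3 and 2, at a lower level. It had 11, 61 and 78 counts in Cgref1 KO livers, against 16, 27 and 18 counts in wild type livers, so Cgref1 KO replicate 1 was the lowest of the 6 and the groups overlapped. Its log2 fold change was 1.36 (SE 0.61, unadjusted p 0.0602, adjusted p 0.967 in edgeR). For Ugt2b5 the log2 fold change was -0.03 (SE 0.14), and it turned positive in 3 of the 18 alternatives. The ratio of Ugt2b38 to Ugt2b5 in CPM was 0.00551, 0.0248 and 0.041 in Cgref1 KO livers, against 0.00419, 0.0113 and 0.0047 in wild type livers. Ugt2b37 and Ugt2b38 fall outside the rule for named genes and are described because of their values. Reads of such copies can be split between them. The 6 deposited counts of Ugt2b38 and of Ugt2b5 were not whole numbers, whereas those of Ugt2b37 were whole. On the minus strand, the deposited spans of Ugt2b5 and Ugt2b37 start at the same base, 87254788. The span of Ugt2b5, with 2 transcripts, runs on to base 87124946 and so covers all of Ugt2b37. The Ugt2b5 promoter stretch printed above, at 87140341 to 87140460, lies inside that span. The single values of Ugt2b5 and Ugt2b38 are therefore uncertain. Whole counts do not show that reads of Ugt2b37 went to the right copy, so its values remain uncertain too.

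**Figure D4:**
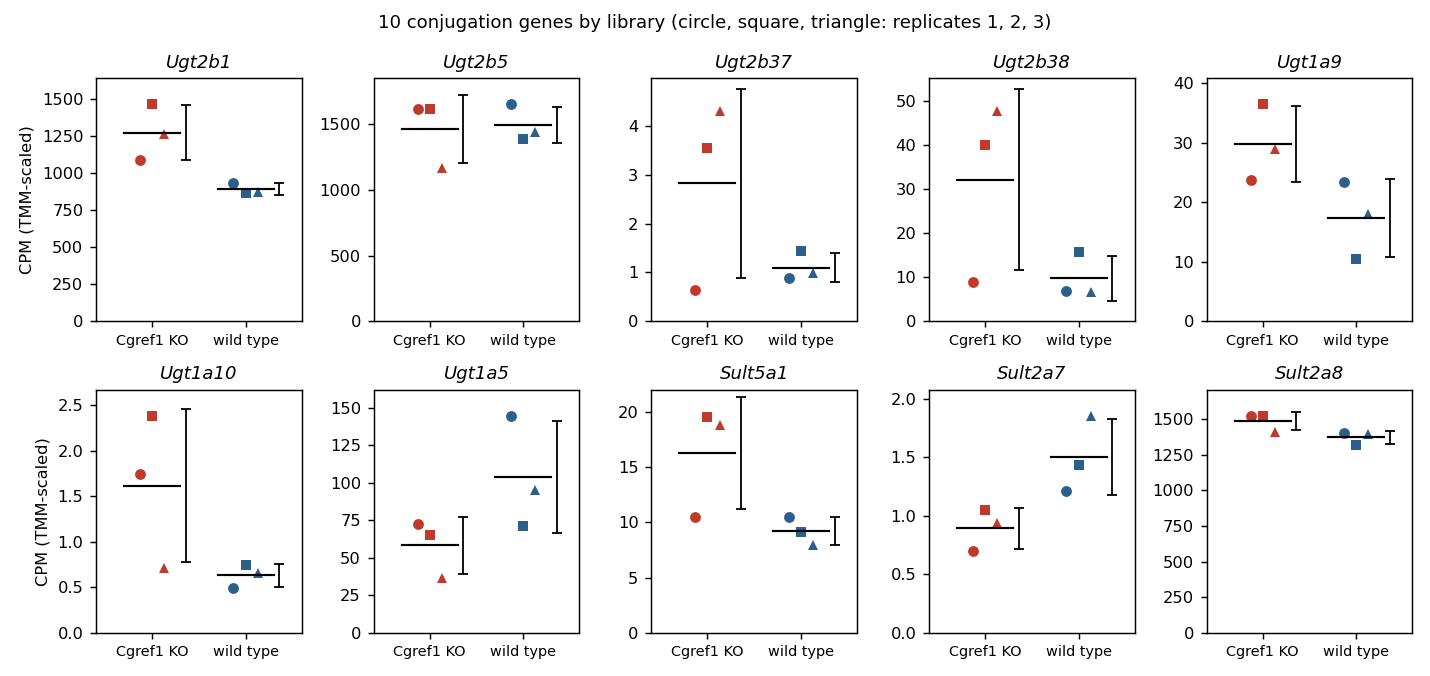
CPM of 10 conjugation genes in each library, Cgref1 KO left and wild type right, with the group mean as a line and the SD as a bar beside it; each axis starts at 0. The groups are apart for Ugt2b1, Ugt1a9, Sult5a1, Sult2a7 and Sult2a8, by narrow margins for Ugt1a9, Sult5a1 and Sult2a8, and Cgref1 KO replicate 1 is level with wild type replicate 1 for Ugt1a9 and Sult5a1.

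The Ugt1a genes form 1 locus on the plus strand of chromosome 1, from 88055411 to 88220002, in which each gene has a first exon of its own that is joined to the same 4 last exons. The first exon encodes the part that binds the substrate, and the shared exons the part that binds UDP-glucuronic acid. The junctions are printed to show where the genes part, with the last 30 bases of each first exon in lower case and the first 30 bases of the shared second exon, which begins at base 88215044, in capitals (GENCODE M21, GRCm38).
Ugt1a1: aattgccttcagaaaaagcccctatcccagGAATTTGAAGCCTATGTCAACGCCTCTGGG
Ugt1a5: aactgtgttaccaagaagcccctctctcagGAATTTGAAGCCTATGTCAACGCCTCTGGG
Ugt1a6a: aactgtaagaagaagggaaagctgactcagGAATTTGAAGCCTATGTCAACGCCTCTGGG
Ugt1a9: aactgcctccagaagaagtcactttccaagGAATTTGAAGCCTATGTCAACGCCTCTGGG
Ugt1a10: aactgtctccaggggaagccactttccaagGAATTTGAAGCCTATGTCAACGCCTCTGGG
The first exons printed end at bases 88212871 for Ugt1a1, 88166903 for Ugt1a5, 88139331 for Ugt1a6a, 88071678 for Ugt1a9 and 88056336 for Ugt1a10. The shared exons make up 45.8% to 46.4% of the coding length of the 8 genes. A read from them fits every Ugt1a gene, and the authors' estimated counts of the 6 tested Ugt1a genes were not whole numbers in 83.3% to 100% of libraries, so each Ugt1a value depends on how those reads were divided. The deposited Ugt1a6a entry, with 6 transcripts, begins at base 88070777, beside the start of Ugt1a9 at 88070779. Its span therefore also covers the first exon of Ugt1a9. Whether reads of that exon were divided between these genes was not tested.

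Ugt1a1, the enzyme that conjugates bilirubin, was the most abundant Ugt1a gene. It had 313, 247 and 260 TPM in Cgref1 KO livers, against 250, 293 and 281 TPM in wild type livers, and the groups overlapped. Its log2 fold change was 0.13 (SE 0.11, 95% confidence interval -0.11 to 0.37) and was slightly negative, -0.01, on the TPM scale. The phenol-conjugating copies followed: Ugt1a6b had 131 ± 12.6 TPM in Cgref1 KO livers and 136 ± 8.07 TPM in wild type livers, and Ugt1a6a had 37.7 ± 3.22 TPM in Cgref1 KO livers and 44.9 ± 2.54 TPM in wild type livers (SD, n = 3 each). In TPM all 3 values of Ugt1a6a lay below the wild type ones, while in CPM the groups overlapped. The first exons of this pair are 97.0% identical.

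Ugt1a9 and Ugt1a10, which share 91.3% of their first exon, were both among the members with an unadjusted p under 0.05. Ugt1a9, a conjugator of phenols that starts at base 88070779, had 23.7, 36.4 and 29.0 CPM in Cgref1 KO livers, against 23.5, 10.5 and 17.9 CPM in wild type livers. The groups just failed to overlap in CPM and overlapped in TPM. The promoters of this pair share 75.2% of the 250 bases before the start. The log2 fold change was 0.78 (SE 0.30, unadjusted p 0.037, adjusted p 0.939 in edgeR), and it was 0.53 without wild type replicate 2, its lowest library. It was 1.49 against that library alone, with the replicates that held most intestinal transcripts, 1 and 3, both left out. Ugt1a10, the first gene of the locus, which in humans works mainly in the gut, was scarce. It had 30.3, 41.5 and 13.2 estimated counts in Cgref1 KO livers, against 8.80, 13.9 and 11.7 in wild type livers, and Cgref1 KO replicate 3 lay within the wild type range. Its log2 fold change of 1.34 (SE 0.45) had an unadjusted p of 0.015 and an adjusted p of 0.903 in edgeR.

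Ugt1a5, known as a female-predominant gene of mouse liver, averaged lower in Cgref1 KO livers without passing the adjusted test. It had 31.9, 26.4 and 15.6 TPM in Cgref1 KO livers, against 65.6, 33.4 and 44.5 TPM in wild type livers, with all 3 Cgref1 KO livers below the wild type ones. In CPM it had 72.6, 65.1 and 36.8 in Cgref1 KO livers and 145, 71.4 and 94.8 in wild type livers, where Cgref1 KO replicate 1 reached just above wild type replicate 2. The log2 fold change was -0.83 (SE 0.36, unadjusted p 0.0653, adjusted p 0.968 in edgeR), and it was -0.52 without wild type replicate 1 and -0.31 against wild type replicate 2 alone. Ugt1a5 is named for these values and not by the rule. The authors' deposited table gave it a q-value of 0.286 and Ugt1a9 one of 0.397.

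Of the remaining pair of the locus, Ugt1a2 had 0, 2.26 and 0 estimated counts in Cgref1 KO livers and 0 in each wild type liver. Ugt1a7c had 0, 3.08 and 2.16 estimated counts in Cgref1 KO livers, against 10.8, 3.92 and 6.86 in wild type livers. Its highest values stood in wild type replicates 1 and 3, which also held the most transcripts of intestinal epithelium, where this gene is known to be active. The part of those transcripts in the difference was not tested.

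Genes of the smaller Ugt subfamilies overlapped between the groups. Ugt2a3, the liver member of the Ugt2a group, had 272, 245 and 206 TPM in Cgref1 KO livers and 291, 257 and 284 TPM in wild type livers, with a log2 fold change of -0.07 (SE 0.12). Ugt3a1 and Ugt3a2, whose human relatives use other UDP-sugars than UDP-glucuronic acid, lie side by side on chromosome 15 and are 93.2% identical in coding sequence. Ugt3a2 had 255, 231 and 203 TPM in Cgref1 KO livers and 254, 224 and 220 TPM in wild type livers, a log2 fold change of 0.11 (SE 0.12). Ugt3a1 stood lower, at 82.6 ± 20.9 TPM in Cgref1 KO livers and 97.8 ± 19.9 TPM in wild type livers (SD, n = 3 each). The olfactory gene Ugt2a1 had 0, 1 and 0 counts in Cgref1 KO livers and 0 in each wild type liver, and Ugt2a2 had 1 count in 1 wild type liver. Ugt8a, which makes the galactolipids of myelin, had 0, 1 and 2 counts in Cgref1 KO livers and 2, 0 and 1 in wild type livers. At these totals a count of 0 allows up to 0.163 to 0.17 CPM by counting error alone.

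Among the sulfotransferases Sult2a8, a mouse liver enzyme that sulfates bile acids, was the dominant gene. It occupies bases 14410686 to 14446769 of chromosome 7, minus strand, and had 1031, 951 and 918 TPM in Cgref1 KO livers, against 983, 950 and 1007 TPM in wild type livers. The TPM values overlapped, whereas in CPM the Cgref1 KO livers, at 1523, 1523 and 1412, lay just above the wild type livers, at 1403, 1321 and 1392. The log2 fold change was 0.12 (SE 0.10, 95% confidence interval -0.10 to 0.33), and it was -0.02 on the TPM scale, where the median of all genes tested lay at -0.11 with a pseudocount of 1 and at -0.13 with 0.1.

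Sult2a7, the neighbour of Sult2a8 at 14465159 to 14492926, was the only member with an unadjusted p under 0.05 that was lower. It had 12, 18 and 17 counts in Cgref1 KO livers, against 22, 27 and 34 counts in wild type livers. All 3 Cgref1 KO livers lay below the wild type livers in CPM and in TPM, and the level was near the detection limit, 0.894 ± 0.177 CPM in Cgref1 KO livers and 1.501 ± 0.325 CPM in wild type livers (SD, n = 3 each). The log2 fold change was -0.74 (SE 0.31, unadjusted p 0.0404, adjusted p 0.944 in edgeR). Over the alternatives it stayed negative, from -0.88 to -0.51.

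Sult5a1, a sulfotransferase whose substrates are little known, occupies bases 123142843 to 123158913 of chromosome 8, minus strand, and had the smallest p among the Sult genes. It had 10.5, 19.6 and 18.8 CPM in Cgref1 KO livers, against 10.5, 9.14 and 7.97 CPM in wild type livers. Cgref1 KO replicates 2 and 3 stood well above the rest, while Cgref1 KO replicate 1 was level with wild type replicate 1. The log2 fold change was 0.83 (SE 0.23, 95% confidence interval 0.30 to 1.36), with an unadjusted p of 0.00645 and an adjusted p of 0.85 in edgeR. Without Cgref1 KO replicate 1 it was 1.06, with an adjusted p of 0.113, and over the alternatives it ran from 0.60 to 1.06 with adjusted p from 0.113 to 1.00. In TPM the groups overlapped. The authors' deposited table gave a q-value of 0.231.

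The Sult1 genes had no member with an unadjusted p under 0.05 (0 of 4 tested). Sult1a1, which sulfates phenols, had 301, 228 and 239 TPM in Cgref1 KO livers and 345, 279 and 355 TPM in wild type livers, a log2 fold change of -0.22 (SE 0.13, unadjusted p 0.124). Against wild type replicate 2 alone the value was 0.00431. Sult1d1, which sulfates catecholamines in mice, had 116 ± 20.3 TPM in Cgref1 KO livers and 124 ± 28.1 TPM in wild type livers, and Sult1b1, which sulfates thyroid hormone and phenols, had 46.3 ± 4.96 TPM in Cgref1 KO livers and 51.6 ± 9.24 TPM in wild type livers (SD, n = 3 each). Sult1c2 had 106, 46 and 55 counts in Cgref1 KO livers, against 131, 129 and 92 counts in wild type livers. Cgref1 KO replicate 1 lay within its wild type range, and the log2 fold change was -0.69 (SE 0.31, unadjusted p 0.0566, adjusted p 0.964 in edgeR). Without Cgref1 KO replicate 1 it was -1.16, with an unadjusted p of 0.000969 and an adjusted p of 0.215.

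Sult3a1 and Sult2a2, which are known as female-predominant in mouse liver, were barely detected in either group. Sult3a1 had 4, 0 and 2 counts in Cgref1 KO livers, against 2, 0 and 0 in wild type livers. Sult2a2 had 0, 1 and 0 counts in Cgref1 KO livers and 0 in each wild type liver. Transcripts of the Y chromosome were present in all 6 livers, with Ddx3y at 66.3 to 84.4 CPM in Cgref1 KO livers and 69.2 to 79.9 CPM in wild type livers. Sult1e1, the oestrogen sulfotransferase, had 0, 8 and 10 counts in Cgref1 KO livers and 3, 3 and 10 in wild type livers. Sult2b1, which sulfates cholesterol in skin, had 0, 1 and 0 counts in Cgref1 KO livers and 0, 0 and 1 in wild type livers, and Sult6b1 had 3, 0 and 0 in Cgref1 KO livers and 1 in each wild type liver.

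The gene lists drawn up for the supply of the donors of both reactions had medians close to zero, and 0 of their genes passed the adjusted threshold in edgeR. The lists are broad, and the part of each gene in that supply was not checked. Of 13 genes listed for UDP-glucuronic acid supply 1 had an unadjusted p under 0.05, the nucleotide-sugar transporter family gene Slc35b1. The list had a median log2 fold change of -0.03, and its gene Ugdh had one of -0.16 (SE 0.21). Ugp2, which makes UDP-glucose, had 455 ± 35.4 CPM in Cgref1 KO livers and 512 ± 55.9 CPM in wild type livers (SD, n = 3 each). Of 12 tested genes of sulfate and PAPS supply 2 had such a p, both higher, with a median of 0.03 over the list. Papss1, which makes PAPS, had 15.8, 14.0 and 14.3 CPM in Cgref1 KO livers, against 11.5, 8.71 and 9.38 CPM in wild type livers, a log2 fold change of 0.58 (SE 0.14, unadjusted p 0.00247, adjusted p 0.739 in edgeR). Slc35b2, which carries PAPS into the Golgi, had one of 0.32 (SE 0.12). Papss2, the more abundant PAPS synthase gene in CPM, had 226 ± 22.7 CPM in Cgref1 KO livers and 220 ± 11.2 CPM in wild type livers (SD, n = 3 each).

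Regulators and other targets of the same receptors gave no common direction. Of 23 tested regulators 1 was higher and 2 were lower at an unadjusted p under 0.05, and their median was 0.04. Nr1h4, the bile acid receptor FXR, was among the lower ones, with a log2 fold change of -0.25 (SE 0.10). The higher one, Nr1i3, which encodes the receptor CAR and was chosen after its values were seen, had 85.8, 77.1 and 82.7 CPM in Cgref1 KO livers, against 49.5, 73.0 and 72.4 CPM in wild type livers. Of 13 tested CAR and PXR targets outside the families 0 were higher and 1 was lower, Cyp2c55, with a median of -0.06. Of 15 tested AHR and NRF2 targets 1 was higher and 0 were lower, Cyp1a2, with a median of -0.08. The other transferases of conjugation (13 tested, 0 higher and 1 lower) had a median of -0.01, the deconjugating enzymes (9 tested, 0 higher and 1 lower) one of 0.07 and the carriers of conjugates (17 tested, 1 higher and 0 lower) one of -0.01. In edgeR 0 genes of these lists passed the adjusted threshold.

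Liver genes known to differ between the sexes, outside the conjugation families, are given beside the members called sex-predominant above. Those labels are background knowledge that was not checked here. The other members were not sorted by sex, so the labelled ones do not show a pattern of the families. Of 15 male-biased genes 7 were higher and 1 was lower in Cgref1 KO livers at an unadjusted p under 0.05, with a median log2 fold change of 0.34, and 0 passed the adjusted threshold in edgeR. Cyp7b1, an oxysterol hydroxylase gene of this list, had 331, 563 and 525 CPM in Cgref1 KO livers, against 168, 265 and 210 CPM in wild type livers. As with Ugt2b1 and Sult5a1, Cgref1 KO replicate 1 was the lowest of the Cgref1 KO livers. Of 10 tested female-biased genes, out of 18 present, 0 were higher and 2 were lower, with a median of -1.18. Over all genes 2.95% were higher and 2.2% lower at such a p. Some estimates were imprecise, with -1.32 (SE 1.25) for Cyp2b9 and -1.15 (SE 1.22) for Cyp2a4, and 2 of the 10 were positive. The 2 lower genes, Slc22a26 and Ntrk2, were scarce, at means of 0.477 and 0.327 CPM in Cgref1 KO livers and 1.22 and 2.50 CPM in wild type livers. Kupffer cell markers, 4 of 8 higher and 0 lower at an unadjusted p under 0.05 with a median of 0.35, summed to 264 to 278 CPM in Cgref1 KO livers, against 209 to 228 CPM in wild type livers. The 8 hepatocyte markers had a median of 0.02, and 7 stellate cell markers, 2 of them lower, one of -0.31. The part of any of these genes in the differences of the members was not tested.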

How the data were processed

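RNA from 3 Cgref1 KO and 3 wild type mouse livers had been enriched for messenger RNA and sequenced, per the labels' protocols. HISAT, Bowtie2, RSEM and DESeq2 are named in the submitters' processing notes, without versions or settings. For the genome build, not given in the sources used here, chromosome names were read: those in the table are those of GRCm38, and all 33 members overlapped their GENCODE M21 entry on the same strand. Nothing states whether counting used strand. Expected counts, not normalized, were deposited for each gene in each library, and the authors also gave FPKM and TPM for each of them, per the file headers. Their table also holds a log2 fold change, a p-value and a q-value, which the text credits to the authors' deposited table. Columns of means (6) and of comparisons between single libraries (9) were left out.

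Expected counts were rounded, kept by edgeR's filterByExpr (minimum count 10; 12033 genes), scaled by TMM factors (0.955 to 1.05) and compared between the groups. The test was edgeR's robust quasi-likelihood test (edgeR 4.0.16 under R 4.3.3) with genotype as its only term, adjusted over all genes by Benjamini and Hochberg, at a threshold of 0.05. Biological variation between replicates was 15.8% (coefficient of variation). Standard errors come from the F statistic, intervals are at 95%, and a count of 0 allows up to 3 counts, by counting error only. Alternatives used DESeq2 1.42.0, limma 3.58.1 (voom on the counts, trend on log2 of TPM with a pseudocount of 1 or 0.1 and of FPKM with 1), other scalings and filters, the replicate number as a block, and libraries left out. The steps were also run on simulated counts, drawn independently for each library with no link between samples of the same number. The outcome is not given here, so how often a real difference would be called is not shown. Replicates of a group differed by far more than sampling noise.

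Members and gene lists were chosen with earlier results of these data known. The rule names members with an unadjusted p under 0.05, those with the highest mean TPM or the smallest p in a subfamily, those whose groups do not overlap in CPM and, by counts only, those below the filter. In other lists it names up to 2 genes with the smallest p and up to 2 with the highest CPM. Some results that the rule would name are not reported here. Sequences come from RefSeq promoter windows and GENCODE M21 transcripts; proteins were not used here.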

Additional observations from a re-analysis of the deposited data

How the results depend on the processing

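Over 18 alternatives and 267 values of 15 members, 0 values passed the adjusted threshold, and 9 of the 15 members kept their sign throughout. The count of all genes called, 1, became 0 with a mean of at least 5 CPM as the filter (452 genes at an unadjusted p under 0.05), 28 with DESeq2, 34 with the replicate block and 0 with wild type replicates 1 and 3 both removed, a setting with 1 wild type library that is assumed to vary like the rest (279 at an unadjusted p under 0.05); it was 1 to 5 when 1 library was left out, 5 without Cgref1 KO replicate 1. Samples of the same number correlated at 0.283, 0.06 and 0.348 in their deviations from the group means. Samples of different numbers correlated at -0.300 to -0.00600, and every library correlated best with its own number. The labels do not say what libraries of the same number share, and the main test used no pairing. These values do not show the samples to be unpaired. With the block the unadjusted p in edgeR was 0.145 for Ugt1a9, against 0.037, and 0.00714 for Sult1c2, against 0.0566. It was 0.0151 for Ugt2b37, against 0.0602, and 0.0336 for Ugt1a5, against 0.0653. Members at an unadjusted p under 0.05 numbered 7 with the block, against 5, and all genes 1039, against 620. The median log2 fold change of the members, 0.04, was -0.0378 with library totals, -0.0903 on TPM with a pseudocount of 1, -0.0909 with 0.1 and -0.0380 on FPKM. These scalings shifted the median of all genes too, to -0.0840, -0.106, -0.130 and -0.0590, and the members' median stayed above it in each. On TPM with these 2 pseudocounts Sult2a8 turned to -0.0210 and -0.0210, Ugt1a1 to -0.00912 and -0.00916 and Ugt3a2 to -0.0209 and -0.0210. With 1 library left out Ugt2a3 ran from -0.13 to 0.0328, positive only without Cgref1 KO replicate 3, and Ugt2b5 from -0.102 to 0.113, positive without Cgref1 KO replicate 3 (0.113) and wild type replicate 1 (0.0429). Against that 1 library, wild type replicate 2, Ugt2a3 was 0.0379, Ugt2b5 0.0632 and Sult1a1 0.00431. The cause of these turns was not tested. Members at an unadjusted p under 0.05 numbered 2 to 9 over the alternatives, against 5. Members averaging under 2 CPM, Ugt1a10, Sult2a7 and Ugt2b37 among them, rest on few counts.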
